A study of Mus musculus with 3 samples.

Results

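Delta cells of the pancreatic islet were compared between a WT mouse library and a library prepared 5 weeks after Taf4 inactivation in beta cells. A barcode was taken as a delta cell when somatostatin (Sst) made up at least 5% of its unique molecular identifiers (UMIs, each standing for 1 captured mRNA molecule), with Ins2 under 20%, Gcg under 5% and Ppy under 5%. These limits gave 566 delta cells among 12000 barcodes in WT and 1062 among 11229 at 5 weeks, together 1628 of 23229. A further 19 of 2295 barcodes passed at 1 week after inactivation and are given beside the others. The 3 libraries hold 25524 barcodes in all.

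Delta cells are the somatostatin-secreting endocrine cells of the islet. Somatostatin acts on neighbouring beta and alpha cells through inhibitory G protein-coupled receptors and restrains the release of insulin and glucagon. Delta cells share much of the secretory machinery of beta cells and also carry Pdx1, while Hhex is a transcription factor known to maintain their identity. Taf4 is a subunit of TFIID, the general factor that places RNA polymerase II at promoters.

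The animals were C57/Bl6 mice labelled Wild type or TAF4 KO. In the mutants a floxed Taf4 gene was deleted in adult animals by tamoxifen through an Ins1-driven Cre-ERT2, a driver meant for beta cells, so the delta cells described here were not its target. The WT library came from 1 animal (300 islets), and each mutant library from 300 islets combined from 2 animals. The study's Taf4+/+ controls carried the same Cre driver and also received tamoxifen as adults, although the label of the WT library says only Wild type. In the WT library alone, cells rich in more than 1 hormone and predicted doublets had been removed by the authors, who also reduced it to 12000 cells.

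Each group was 1 library, so no test between conditions was possible, no p-value is given, and genotype, animal, sex and library cannot be told apart. The WT library did not match its label of a male mouse: it held 17357 Xist UMIs, of which 1017 were in delta cells, and its table lists none of Ddx3y, Eif2s3y, Kdm5d and Uty. The 5-week library held 11 Xist UMIs and 1349 of Ddx3y. The median depth of a delta cell was 626.5 UMIs for WT, 1138.5 for 5 weeks and 15230 for 1 week. The WT and 5-week libraries shared 33 barcodes, none of them among the delta cells. Levels below are CPM, counts scaled to 1000000 of the UMIs left after Ins1, Ins2, Gcg, Sst and Ppy were removed (312361 UMIs in WT, 1070211 at 5 weeks, 230455 at 1 week). Values in parentheses after a log2 ratio of 5 weeks over WT are its exact 95% interval, which covers counting error only.

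Delta cells were 4.72% of WT barcodes (4.34 to 5.11, exact Clopper-Pearson interval) and 9.46% at 5 weeks (8.92 to 10.0). This order rested on the limits. With Sst at 10% or more, Ins2 under 5%, and Gcg and Ppy each under 2%, the shares were 2.21% in WT and 1.97% at 5 weeks. The stricter Ins2 limit fell unequally on the libraries, as the median Ins2 share of delta cells was 3.34% in WT and 5.18% at 5 weeks. Of the barcodes with Sst at 5% or more, the other limits removed 55 of 621 in WT and 381 of 1443 at 5 weeks. The Ins2, Gcg and Ppy limits were exceeded by 2, 0 and 53 in WT and by 130, 101 and 154 at 5 weeks. The authors had already removed cells rich in more than 1 hormone from the WT library alone. These removals therefore cannot be compared between the libraries. Just below the Sst limit, at 4 to 5%, lay 9 barcodes in WT and 30 at 5 weeks, and just above it, at 5 to 6%, lay 8 and 35. The Sst share itself, which chose the cells, had a median of 15.7% in WT and 13.1% at 5 weeks.

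The name of the cells was checked with delta genes that the limits do not use. Rbp4, a retinol carrier abundant in delta cells, was at 8679 CPM for WT, 6557 CPM at 1 week and 8149 CPM at 5 weeks, against 155 and 146 CPM in the beta cells of WT and 5 weeks. Hhex stood at 285 CPM, 408 CPM and 397 CPM in the same order, against 2.85 and 4.97 CPM in beta cells. Both genes were thus far above their beta-cell level in WT and at 5 weeks. In delta cells thinned to 500 UMIs, Rbp4 was detected in 89.2% of WT cells and 89.6% at 5 weeks, against 3.00% and 2.41% of beta cells. Alpha cells were nearer for Rbp4, with detection in 38.1% for WT and 35.7% at 5 weeks after the same thinning. Detection of Hhex was 9.36% in WT (median depth 626.5 UMIs) and 14.9% at 5 weeks (1138.5 UMIs) after thinning, and 13.96% and 30.7% before it. Gcg was still detected in 76.1% and 68.6% of thinned delta cells, which sets the background of a transcript they are not known to make.

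Both libraries listed 15429 genes, and 2014 had at least 100 UMIs over the delta cells of WT and 5 weeks together. Of these, 84 (4.17%) were at least 2-fold higher at 5 weeks and 38 (1.89%) at least 2-fold lower, and the median log2 ratio was 0.07. TMM scaling of the sums gave 59 higher and 45 lower. The minimum of 100 UMIs favours genes higher at 5 weeks, because a gene of equal level at that minimum has 22.6 UMIs in WT. A gene with fewer UMIs than that in WT passed the minimum only because it was higher at 5 weeks. Such genes named below include Ghrl, AY036118, Ier3, Klf2, Pdx1, Ffar4, Rfx6, Scn3a, Pcsk1, Gpi1, Rnd3, Klf7, Lias and Tcim. The direction of their ratios was thus fixed by the filter. Among the 1377 genes with a mean of at least 100 CPM, a filter without that asymmetry that was added after the data were seen, 39 were higher and 36 lower. The higher genes included 8 immediate early genes and 6 heat shock chaperones, and the lower genes included 14 markers of acinar cells, the enzyme-secreting cells around the islet.

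**Figure D1:**
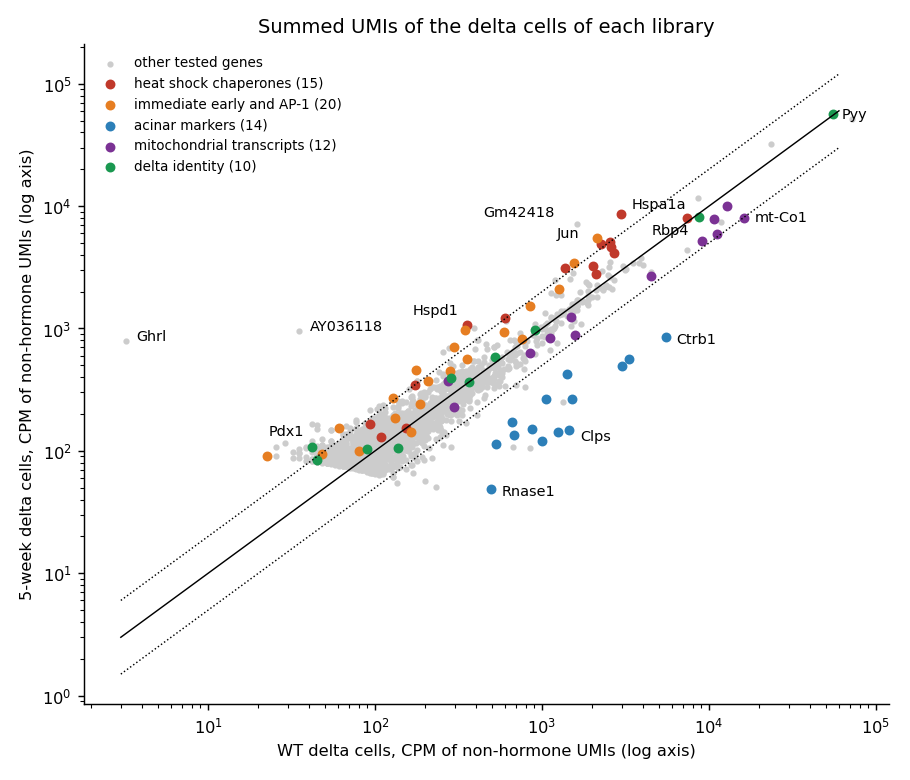
Level of each tested gene in WT (x axis) and 5-week (y axis) delta cells, in CPM of non-hormone UMIs on log axes, with the line of equal levels and dotted lines at 2-fold. Heat shock and immediate early genes lie mostly above the line, all 14 acinar markers below the lower dotted line, and most delta identity genes on the line.

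Heat shock chaperones, which bind unfolded proteins and are switched on together by heat shock factor, were higher in delta cells at 5 weeks. Of 16 listed chaperones 15 were tested, 11 were at least 1.5-fold higher at 5 weeks and 0 were 1.5-fold lower, where 14.1% of all tested genes were 1.5-fold higher and 6.55% lower. The list's median log2 ratio was 0.84. The summed chaperones held 2.74% of non-hormone UMIs for WT, 0.416% for 1 week and 4.76% for 5 weeks.

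The 250 bases before the start of transcription are shown for Hspa1a and Dnaja1, members of the list with large log2 ratios (for Dnaja1 before 1 of 3 annotated starts, since the windows of the other two held no motif), together with the 30 bases that hold a run of 3 overlapping motifs before 1 annotated start of Hspd1 (RefSeq sequence, GRCm38.p6, which is mm10). Capitals mark GAANNTTC and TTCNNGAA, the inverted repeats of the heat shock element. Each reads the same on both strands.
Hspa1a, chr17:34972157-34972406, minus strand: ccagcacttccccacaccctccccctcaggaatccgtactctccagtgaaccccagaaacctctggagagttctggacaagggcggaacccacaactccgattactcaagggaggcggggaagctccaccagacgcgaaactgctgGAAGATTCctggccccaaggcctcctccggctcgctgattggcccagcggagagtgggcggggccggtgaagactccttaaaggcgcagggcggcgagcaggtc
Dnaja1, chr4:40722218-40722467, plus strand: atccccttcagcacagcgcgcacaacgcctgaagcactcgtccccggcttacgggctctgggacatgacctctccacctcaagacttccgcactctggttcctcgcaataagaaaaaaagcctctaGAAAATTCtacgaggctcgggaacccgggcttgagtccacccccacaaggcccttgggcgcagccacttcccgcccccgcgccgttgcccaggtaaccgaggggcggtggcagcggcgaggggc
Hspd1, chr1:55088053-55088082, minus strand: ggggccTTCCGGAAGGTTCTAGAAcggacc
One or both motifs stood in this window for 8 of the 12 tested heat shock chaperones with a RefSeq promoter, for 181 of 1601 tested genes (11.3%) and for 3932 of 27025 genes in all (14.5%). The 8 include Dnajb4 and Hspb1, which had the smallest log2 ratios on the list. Bag3 (1.01) and Dnajb1 (0.68) had neither motif. The stretch printed for Hspd1 lies before Hspe1 too, which is read in the opposite direction. The window before the other annotated start of Hspd1 held no motif. A match describes the letters only and is not evidence of binding.

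Hspa1a, an inducible Hsp70 on chromosome 17 from 34969359 to 34972156, was at 2974 CPM for WT, 4.34 CPM (1 UMI) at 1 week and 8601 CPM at 5 weeks. It was thus lowest at 1 week and highest at 5 weeks, its log2 ratio being 1.53 (1.43 to 1.63). Its near-identical neighbour Hspa1b was at 2545 CPM, 0 UMIs and 5061 CPM (a count of 0 allows up to 3 UMIs), and the division of reads between this pair is uncertain. Hspd1, the mitochondrial Hsp60, was at 355 CPM for WT, 204 CPM at 1 week and 1058 CPM at 5 weeks, with a log2 ratio at 1.57 (1.29 to 1.87). Its partner Hspe1, the mitochondrial Hsp10, differed less, from 2094 CPM for WT to 2791 CPM at 5 weeks. The log2 ratio was 1.18 for the Hsp40 Dnaja1, 1.10 for Hsp90aa1, 1.03 for Hsph1 and 1.01 for the cochaperone Bag3. Genes off the list with related functions were also high, with log2 ratios of 1.37 for the Hsp40 Dnaja4 and 1.33 for Cacybp, a partner of ubiquitin ligases. The smallest ratios on the list were those of Dnajb4 (0.01) and the small heat shock protein Hspb1 (0.13), so the members did not move by a common factor.

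The difference was spread over the cells. The chaperones took a median of 1.56% of a WT delta cell's non-hormone UMIs and 4.77% of a 5-week cell's. Of the WT cells, 126 of 566 (22.3%) reached the 5-week median, and 147 of 1062 5-week cells (13.8%) lay below the WT median. WT cells varied widely, with quartiles at 0.699% and 3.96% and the highest cell at 15.2%. All 19 cells at 1 week lay below the WT median, with a highest value of 0.962%. In cells thinned to 500 UMIs, Hspa1a was detected in 46.5% of WT and 81.6% of 5-week delta cells (51.9% and 88.6% unthinned).

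**Figure D2:**
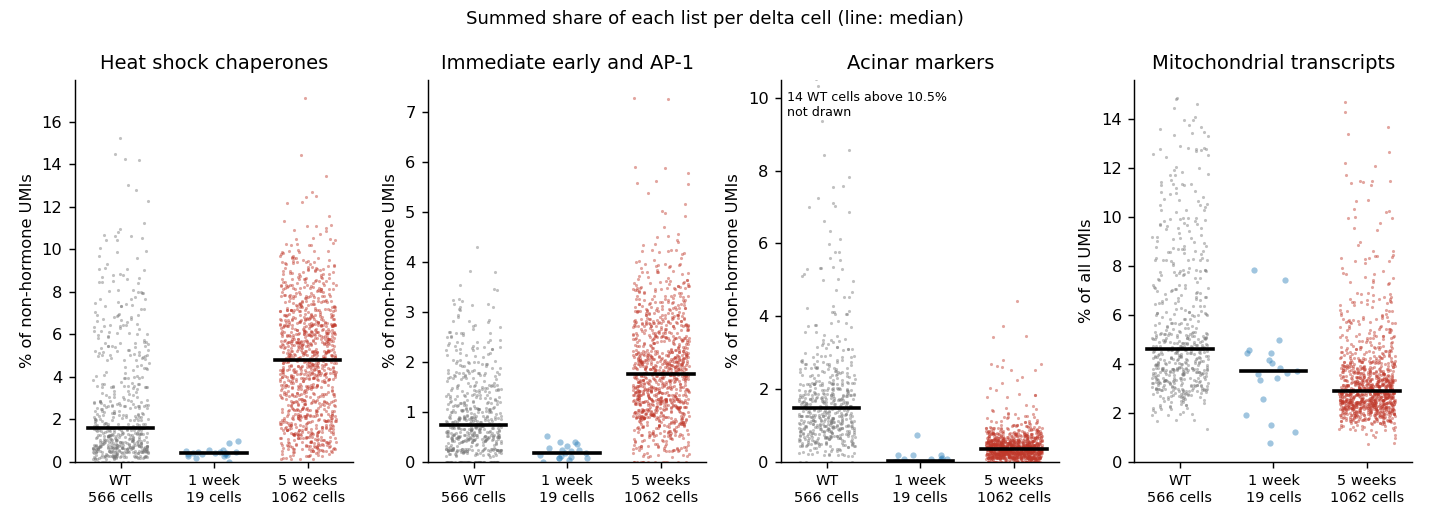
Share of each delta cell's UMIs held by 4 gene lists, 1 point per cell with a line at the median (14 WT cells above the axis of the acinar panel are not drawn). The 5-week cells have higher medians for heat shock (4.77% against 1.56%) and immediate early genes, and lower medians for acinar and mitochondrial transcripts, while the 1-week cells are lowest for heat shock, immediate early and acinar genes.

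Immediate early genes encode short-lived transcription factors and feedback regulators that are induced within minutes of a signal or of cell handling, the Fos and Jun families forming the AP-1 dimer. Of 30 listed, 20 were tested, 15 were at least 1.5-fold higher at 5 weeks, 0 were 1.5-fold lower, and the median log2 ratio was 0.84. The shares of all tested genes were 14.1% higher and 6.55% lower. Jun was at 2129 CPM for WT, 503 CPM at 1 week and 5515 CPM at 5 weeks, its log2 ratio being 1.37 (1.26 to 1.49). Junb followed the same order at 298, 86.8 and 710 CPM, as did Jund at 1549, 607 and 3411 CPM. The AP-1 genes were thus lowest at 1 week and highest at 5 weeks, as the chaperones were. Fos, the partner of Jun, differed less, from 1265 CPM to 2098 CPM (log2 ratio 0.73). Among feedback regulators and Krüppel-like factors the log2 ratio was 2.02 for Ier3, 1.49 for the antiproliferative Btg2, 1.38 for Klf6 and 1.34 for Klf2. The ratio of Ier3 (0.92 to 3.37) rested on only 7 UMIs in WT, against 97 at 5 weeks. Ier3 thus passed the minimum of UMIs mainly through its 5-week count, and the size of its ratio is uncertain. Klf2, with 19 UMIs in WT and 165 at 5 weeks (0.65 to 2.11), also passed the minimum only through its 5-week count. The summed list held 0.977% of non-hormone UMIs for WT, 0.217% for 1 week and 1.93% for 5 weeks. Within the stricter limits on cells, the log2 ratios of Jund (0.94) and Junb (0.87) were under 2-fold.

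**Figure D3:**
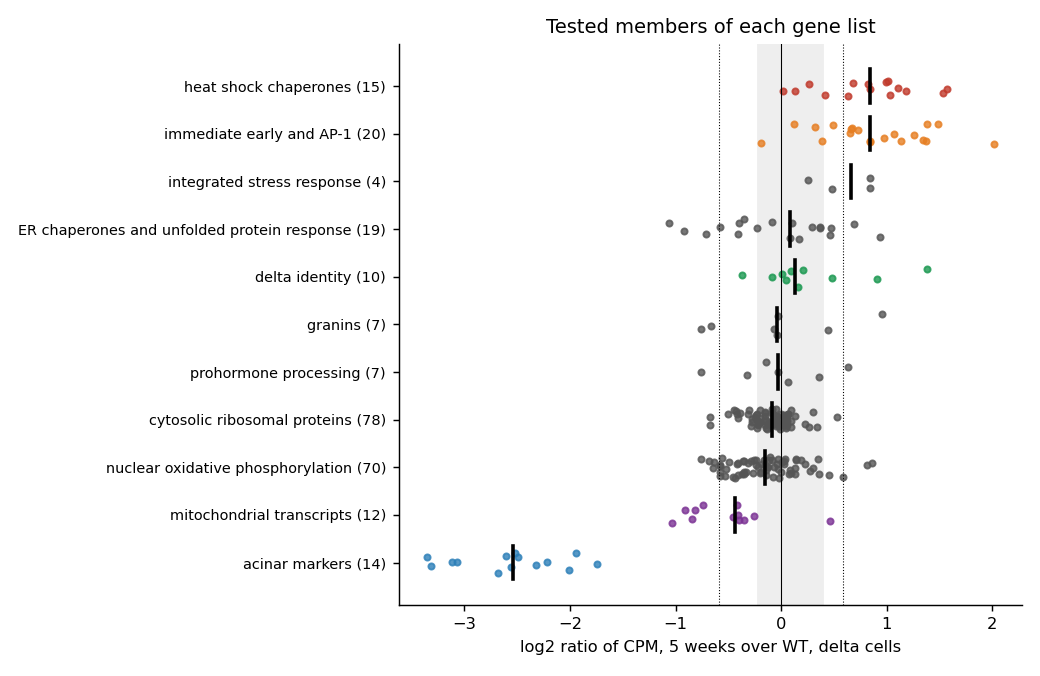
Log2 ratio of CPM, 5 weeks over WT, for each tested member of 11 gene lists in delta cells (number tested in brackets), with a bar at the list's median, grey between the quartiles of all tested genes and dotted lines at 1.5-fold. Heat shock and immediate early genes centre on 0.84, delta identity on 0.13, mitochondrial transcripts on -0.44 and acinar markers on -2.54.

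Endoplasmic reticulum (ER) chaperones and unfolded protein response genes did not share this shift. Of 32 listed, 19 were tested, 2 were at least 1.5-fold higher and 3 lower, and the median log2 ratio was 0.09. Among all tested genes 14.1% were 1.5-fold higher and 6.55% lower. Hspa5 (BiP), the main Hsp70 of the ER, was at 605 CPM for WT, 881 CPM at 1 week and 1155 CPM at 5 weeks, with a log2 ratio at 0.93 (0.71 to 1.16). Herpud1, a component of ER-associated degradation, had a log2 ratio of 0.69, which was 0.04 within the stricter limits. Dnajb9, an Hsp40 partner of BiP, was lower, at 410 CPM for WT and 196 CPM at 5 weeks (-1.06, -1.39 to -0.73), as were the disulphide isomerase Pdia4 (-0.92) and the lectin chaperone Canx (-0.72). The list thus held members on both sides of 0. Of 26 genes of the integrated stress response, the programme of Atf4 and Ddit3, only 4 were tested. Atf3 and Ppp1r15a, an eIF2α phosphatase subunit, were both at 0.84, but Ppp1r15a was at 0.20 within the stricter limits, and Ddit3 was at 0.25 (-0.38 to 0.93). Cdkn1a, the p53-induced inhibitor of the cell cycle, was at 76.8 CPM for WT and 178 CPM at 5 weeks (log2 ratio 1.21).

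Delta identity genes were mostly at similar levels. Of 16 listed, 10 were tested, 2 were at least 1.5-fold higher, 0 were 1.5-fold lower, and the median log2 ratio was 0.13. Of all tested genes, 14.1% were 1.5-fold higher and 6.55% lower. Rbp4 was at -0.09 (-0.15 to -0.03), Isl1, an islet LIM homeobox factor, at 0.16 (-0.09 to 0.42), Tspan8 at 0.01 (-0.30 to 0.32) and Fam159b at 0.10 (-0.09 to 0.29). Pyy, a peptide hormone of the pancreatic polypeptide family, was abundant in these cells in every library, at 55039 CPM for WT, 64012 CPM at 1 week and 56944 CPM at 5 weeks. Hhex was higher at 0.48 (0.15 to 0.83), below 1.5-fold. The members past 1.5-fold were Pdx1 and the fatty acid receptor Ffar4. Pdx1, on chromosome 5 from 147270097 to 147275848, had 13 UMIs in WT and 116 at 5 weeks, or 41.6 and 108 CPM, with 143 CPM at 1 week, so WT was lowest (log2 ratio 1.38, 0.55 to 2.33, and 2.88 within the stricter limits). The stricter limits keep only part of these cells, so the 2.88 rests on at most 13 UMIs in WT. Ffar4 had 14 and 90 UMIs (0.91, 0.09 to 1.84). Both genes passed the minimum of UMIs only through their 5-week counts, so the filter fixed their direction. Spock3, with 26 and 37 UMIs, was not tested.

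Islet transcription factors were measured at low depth, with 11 of 30 tested, 2 higher (Pdx1 again and Rfx6) and 1 lower. These counts are too small to set the list apart from the 14.1% and 6.55% of all tested genes. Rfx6, which is required for islet endocrine development, had a log2 ratio of 1.01 from 17 and 117 UMIs, and Etv1, an ETS factor, was at -0.73 from 140 and 290 UMIs. Like Pdx1, Rfx6 passed the minimum of UMIs only through its 5-week count. Taf4 itself had 3 UMIs in WT, 0 at 1 week and 6 at 5 weeks, too few to describe its level in delta cells. Of 17 TFIID subunits only Taf10 was tested, and it was at 352 CPM for WT, 139 CPM at 1 week and 169 CPM at 5 weeks, lower in both mutant libraries (log2 ratio -1.06, -1.41 to -0.70).

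Granins are the soluble proteins packed with hormone in secretory granules. Of 8 granins and related granule proteins 7 were tested, 1 was at least 1.5-fold higher and 2 lower, counts too small to set the list apart from the 14.1% and 6.55% of all tested genes. Scg3, a granin that anchors granule cargo to the membrane, was at 413 CPM for WT, 877 CPM at 1 week and 798 CPM at 5 weeks (0.95, 0.68 to 1.23). Pcsk1n, the inhibitor of prohormone convertase 1, was lower in both mutant libraries, with 7363 CPM for WT, 4075 for 1 week and 4338 for 5 weeks (-0.76, -0.84 to -0.69), and Resp18 had 11768, 5576 and 7448 CPM (-0.66, -0.72 to -0.60). WT thus stood apart from both mutant libraries for all 3 genes. Chga (-0.07), Chgb (-0.04) and Scg5 (-0.03) were close to 0, and Scg2 was at 0.45. Of 10 prohormone-processing genes 7 were tested, with the convertase Pcsk1 at 0.63 (-0.15 to 1.503) and Pcsk1n the only ones past 1.5-fold. Iapp, the amyloid peptide stored with insulin and present in delta cells, was at 72253 CPM for WT and 51416 CPM at 5 weeks (-0.49).

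Early secretory transport carries new hormone precursors from the ER to the Golgi, and exocytosis releases the granules. Of 36 genes of early secretory transport 29 were tested, 2 were higher (the COPI coat subunit Copb1, 1.20, and the translocon component Sec62, 1.01) and 3 were lower (the translocation factor Tram1, -0.99, and the signal peptide receptor subunits Ssr2, -0.70, and Ssr4, -0.65), where 14.1% of all tested genes were higher and 6.55% lower. Of 31 exocytosis genes 9 were tested, with the granule membrane protein Ptprn2 (0.80) and the SNARE Vamp2 (0.70) higher and Ptprn (-0.86) and the SNARE Snap25 (-0.80) lower. The counts behind these genes were small, for example 35 UMIs of Snap25 in WT and 69 at 5 weeks. Of 32 ion channel genes 5 were tested, too few to set the list apart from all tested genes. The 2 higher members were the voltage-gated sodium channels Scn3a, at 0.99 (0.25 to 1.82), and Scn9a, at 0.71 (-0.02 to 1.52, which holds 0). Scn3a had 17 UMIs in WT and 116 at 5 weeks, and passed the minimum of UMIs only through its 5-week count.

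Transcripts of the mitochondrial genome were lower in delta cells at 5 weeks. Of 13, 12 were tested, 5 were at least 1.5-fold lower, 0 were 1.5-fold higher, and the median log2 ratio was -0.44. Over all tested genes the shares were 6.55% lower and 14.1% higher. The cytochrome oxidase subunit mt-Co1 was at 16260 CPM for WT, 9985 CPM at 1 week and 7928 CPM at 5 weeks (-1.04, -1.09 to -0.99), and mt-Co3 (-0.91) and mt-Cytb (-0.82) had the same direction. Per cell, mitochondrial transcripts took a median of 4.59% of all UMIs in WT and 2.90% at 5 weeks. The share of mitochondrial UMIs is also a measure of cell quality, and its part in the other results was not tested. Nuclear genes of oxidative phosphorylation differed little, with 70 of 82 tested, 2 higher (Sdhd, 0.86, and Sdha, 0.81, both succinate dehydrogenase subunits), 4 lower (Uqcrb, -0.76, and the complex I genes Ndufa7, Ndufa13 and Ndufa4) and a median of -0.15. Both counts were below the shares of all tested genes. Cytosolic ribosomal proteins were near 0 throughout, with 78 of 81 tested, 0 higher, 2 lower (Rpl39, -0.68, and Rpl36al, -0.67) and a median of -0.08.

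Antioxidant and metal-binding genes had 1 member at least 1.5-fold higher and 1 lower of 14 tested, near or below the shares of all tested genes. Mt1, a zinc-binding metallothionein, was at 256 CPM for WT, 1658 CPM at 1 week and 645 CPM at 5 weeks, higher in both mutant libraries (log2 ratio 1.33, and 0.85 among cells of 500 to 2000 UMIs). Prdx1, a peroxiredoxin, was lower in turn, with 695 CPM for WT, 555 for 1 week and 348 for 5 weeks (-0.999, -1.24 to -0.75). Of 9 glucose-responsive and glycolytic genes tested, Txnip, an arrestin-like gene induced by glucose, was at 0.68, the glycolytic isomerase Gpi1 at 0.77, and the citrate lyase Acly at -0.72. No tested gene of the cell cycle (4) or of antigen presentation and the interferon response (7) was past 1.5-fold.

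The highest ratio of all was that of Ghrl, the ghrelin gene, with 1 UMI in WT and 839 at 5 weeks, but 837 of the 839 came from 1 cell, which left 2 UMIs in all other 5-week delta cells. The ribosomal RNA-derived transcripts AY036118 (log2 ratio 4.76) and Gm42418 (2.14) were next, and stood equally high in beta cells (4.84 and 2.29) and alpha cells (4.69 and 2.04). Rnd3, a small GTPase on chromosome 2 from 51130439 to 51149111, was at 41.6 CPM for WT, 13.0 CPM at 1 week and 165 CPM at 5 weeks (1.99, 1.18 to 2.93). Klf7, another Krüppel-like factor, was at 1.85, Lias, the lipoic acid synthase of mitochondria, at 2.08 and Tcim at 2.01, each from at most 14 UMIs in WT. These genes and Rnd3, with 13 UMIs in WT, passed the minimum of UMIs only through their 5-week counts. Apart from exocrine, mitochondrial and sex-linked genes and the markers of other cell types, the 5 lowest by the bound nearest 0 were Gm47283 (-1.80), Pdcd4, an inhibitor of translation initiation (-1.41), Ids, a lysosomal sulphatase (-1.38), BC005537 (-1.31) and Snhg20 (-1.19).

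Transcripts of other cell types moved with the comparison. All 14 tested acinar markers were at least 2-fold lower at 5 weeks, between -1.74 and -3.35, and the sum of all 16 listed was 2.30% of non-hormone UMIs in WT, 0.0434% at 1 week and 0.394% at 5 weeks. Exocrine genes outside the list, Sycn, Zg16, 2210010C04Rik and Pnliprp1, were also among the 15 lowest named genes. The acinar sum was lower at 5 weeks in beta cells (-3.15) and alpha cells (-2.70) by amounts like that in delta cells (-2.54). The insulin transcripts did the same: Ins1 was at 17928 CPM for WT and 2574 CPM at 5 weeks in delta cells (-2.80), against -2.68 in beta cells, and Ins2, which the limits use, was at 0.48 in both. Of the listed beta markers 5 were tested, and 2 were at least 1.5-fold higher in delta cells, as were 14.1% of all tested genes. Their median log2 ratio was 0.23 in delta and -0.43 in beta cells, so the list as a set did not move as in beta cells. The summed beta markers other than the insulins (22569 of 22940 WT UMIs from Iapp) and the summed alpha markers other than Gcg were lower, at -0.49 and -0.70, and the ductal sum was at 0.26. Endothelial (8 UMIs in WT and 132 at 5 weeks, 6 of 10 markers at 0 in WT), mesenchymal (1 and 20), immune (29 and 110, of which C1qa 20 and 91) and erythroid markers (4 and 14) held few UMIs in both libraries. Their summed log2 ratio was 2.27 (1.25 to 3.51) for endothelial, 2.55 (-0.10 to 7.92) for mesenchymal, 0.15 for immune and 0.03 for erythroid markers. The part of free RNA from these cells in the results on delta genes was not tested. Removing a whole-library profile scaled to Gcg or to Ins2 changed no sign among the 78 named genes. It left 89 or 96 genes 2-fold higher and 40 or 41 lower. This removal took at most 13.4% of delta UMIs, and the named genes leave out the listed acinar markers. It therefore cannot decide the part of free RNA.

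The same ratios were then taken in beta cells (8401 in WT, 5234 at 5 weeks) and alpha cells (2701 and 2880), chosen by like limits. Heat shock and immediate early genes were higher at 5 weeks in all 3 cell types, with medians over the members tested in delta cells of 0.84, 1.21 and 0.89 for heat shock and 0.84, 1.57 and 1.13 for immediate early genes in delta, beta and alpha cells. Several stress genes had a smaller ratio in delta than in beta cells. Cdkn1a was at 1.21 in delta and 3.36 in beta cells, Fos at 0.73 and 2.74, Ddit3 at 0.25 and 2.12, Herpud1 at 0.69 and 2.19, and Hspa5 at 0.93 and 1.97. The difference of the log2 ratios, delta minus beta, was -2.01 (-2.17 to -1.85) for Fos and -1.87 (-2.50 to -1.24) for Ddit3. Hspd1 was the reverse, at 1.57 in delta, 0.82 in beta and 1.61 in alpha cells.

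A set of genes that was much lower in beta cells at 5 weeks was at similar or higher levels in delta cells. These genes were chosen after their values were seen, among those with the largest difference between the cell types. Nnat, an imprinted gene of the ER membrane on chromosome 2 from 157560078 to 157562525, was at 92.8 CPM for WT and 162 CPM at 5 weeks in delta cells, against 44.7 and 3.21 CPM in beta cells. Its log2 ratio was 0.80 in delta cells (0.23 to 1.42) and -3.80 in beta cells, a difference of 4.60 (3.83 to 5.37). C1qa, a complement gene on the immune marker list, was at 0.41 in delta and -3.34 in beta cells. Defb1, a beta-defensin, was at 240 and 186 CPM in delta cells and at 396 and 14.4 CPM in beta cells. Scn3a was at 0.99 in delta and -2.23 in beta cells, and Ramp1, a partner of the calcitonin receptor-like receptor, at 0.35 and -2.59. The potassium channel Kcnk16 (-0.29 and -3.01), the mitochondrial carrier Ucp2 (-0.17 and -2.70), Pcp4 (-0.31 and -2.72), Fxyd3 (-0.16 and -2.59), the deiodinase Dio1 (0.05 and -2.25) and Baiap3 (0.33 and -2.16) had the same pattern. In alpha cells these genes lay between -1.01 (Fxyd3) and 0.25 (Baiap3). The distance from beta cells was fixed by how the genes were chosen, and no test of it over animals was possible. The ratio was higher in delta than in alpha cells by 1.16 for Scn3a (0.32 to 2.0), 0.85 for Fxyd3 (0.20 to 1.49) and 0.67 for Ramp1 (0.09 to 1.25). For the other genes of this set the interval included no difference. The delta ratios that entered the choice of genes enter these differences too, so they are not independent of it. Scn3a also passed the minimum of UMIs only through its 5-week count. The summed log2 ratio of mitochondrial transcripts was -0.68 in delta, -0.70 in alpha and -0.06 in beta cells.

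**Figure D4:**
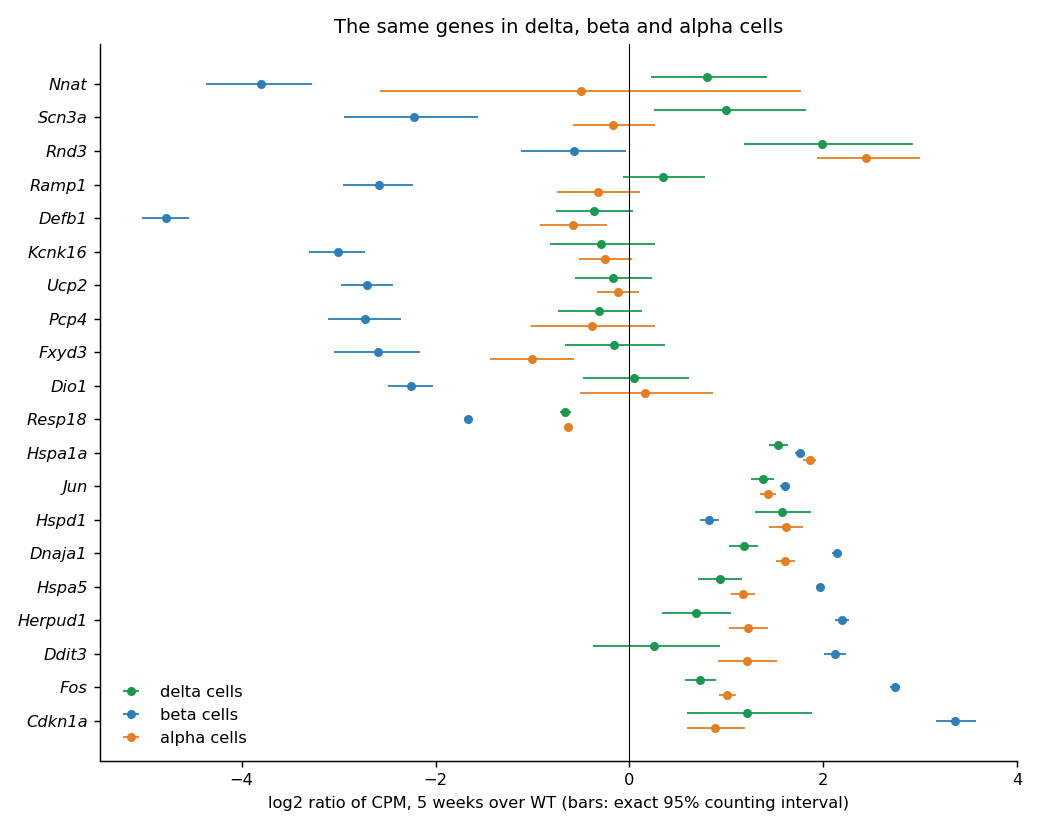
Log2 ratio of CPM, 5 weeks over WT, for 20 genes in delta, beta and alpha cells, with exact 95% counting intervals. The upper 11 genes are lower in beta than in delta cells (Defb1 -0.37 in delta and -4.78 in beta), and the lower genes are above 0 in all 3 cell types, with Fos and Cdkn1a highest in beta cells.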

How the data were processed

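Single cells from isolated islets were captured with 10X Genomics 3′ chemistry. Per the labels, the authors used bcl2fastq 2.17.1.14, Cell Ranger 3.1 and Seurat 3.1.4 with mm10, and deposited raw UMI counts per gene and barcode, which were used here without further filtering of barcodes. Between 19472212 and 39408284 UMIs were counted per library. The WT library was reduced in size and cleared of cells with several hormones and of doublets (DoubletFinder) by the authors. No doublet caller was run here, so doublets remain possible at 1 and 5 weeks.

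Cells were chosen by limits on hormone shares, UMIs were summed per library, and CPM was computed without Ins1, Ins2, Gcg, Sst and Ppy. Ratios carry exact conditional 95% intervals, levels exact Poisson and shares exact Clopper-Pearson intervals, all for counting error only. Genes with at least 100 UMIs over both libraries were called tested. Beta cells had Ins2 at 20% or more and Sst under 1%, and alpha cells Gcg at 10% or more, Ins2 under 20% and Sst under 1%. For detection, cells were thinned to 500 UMIs, and 1 cell of 1 week was too shallow. The members, gene lists and alternatives were chosen with earlier results of these data known. Named genes were the 15 with the highest and the 15 with the lowest interval bound nearest 0, up to 6 members past 1.5-fold in each direction per list, and Taf4. Other genes were named after their values were seen. RefSeq (GRCm38.p6) held 73 of the 78 named genes. On simulated counts of this comparison the intervals covered the simulated ratio for 95.5% of 155 altered and 95.8% of 1790 unaltered genes. These counts were drawn with the Poisson counting error that the intervals assume, so such coverage follows from the setting. It checks the computation only and says nothing of spread between cells, animals or libraries. Python 3.11.15, numpy 2.4.6, scipy 1.17.1, pandas 2.3.3, matplotlib 3.10.9, R 4.3.3 and edgeR 4.0.16 (TMM scaling only) were used. Alternatives were stricter cell limits, the study's limits (200 to 1500 genes, under 15% mitochondrial UMIs), matched depth, thinning, means per cell, other totals, TMM or median scaling, removal of free RNA, and minimums of 50 and 300 UMIs.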

Additional observations from a re-analysis of the deposited data

Results flagged for a closer look

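The following genes had log2 ratios of 5 weeks over WT of opposite sign in delta and beta cells. Both differences were at least 1.5-fold, and both intervals for counting error lay clear of 0. With 1 library per condition the difference between the cell types was not tested over animals. Scn3a, a voltage-gated sodium channel, was at 0.99 in delta cells (0.25 to 1.82) and -2.23 in beta cells. With 17 UMIs in WT delta cells and 116 at 5 weeks, it passed the minimum of UMIs only through its 5-week count. Its direction in delta cells was therefore fixed by the filter. Nnat was at 0.80 in delta cells (0.23 to 1.42) and -3.80 in beta cells. Hmgn2, a nucleosome-binding protein, was at 0.75 in delta cells (0.32 to 1.21), -0.64 in beta cells and 1.01 in alpha cells.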

How the results depend on the processing

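No paired analysis was possible because each group was 1 library. The count of genes 2-fold higher at 5 weeks was 84 and moved with the cells and minimums used: it was 139 within the stricter limits on cells, 255 with a minimum of 50 UMIs, 22 with a minimum of 300 UMIs and 39 with a mean of at least 100 CPM. The 38 genes 2-fold lower became 66, 62, 19 and 36 in the same order. Fewer cells (stricter limits) and fewer tested genes (572 at the minimum of 300 UMIs, 3957 at 50) enter by construction. The other alternatives gave between 59 (TMM and median scaling) and 110 (thinned cells) higher and between 37 (all UMIs in the totals) and 53 (thinned cells) lower. The share of delta cells moved to 2.21% in WT and 1.97% at 5 weeks within the stricter limits, and the study's limits left 4.72% and 9.39%. Among the 78 named genes and 12 alternatives the sign changed for Ghrl alone, which was at -0.74 within the study's limits and -0.51 at matched depth (from 3 UMIs or fewer in each library), and 17 of the 35 values that moved outside the main interval belonged to the stricter limits. Pdx1 was at 2.88 there, from at most 13 UMIs in WT. Free RNA by Gcg was 7.46% of delta UMIs in WT and 4.36% at 5 weeks, and by Ins2 11.3% and 13.4%. Depth limits genes under about 100 UMIs, Taf4 among them.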
